A study of Mus musculus with 8 samples.

Results

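Fibroblast growth factors (FGFs) are signaling proteins that muscle fibers, fibroblasts and other cells release or hold in the extracellular matrix. The genes described here are the 10 listed for FGF signaling in soleus: the ligands Fgf1, Fgf2, Fgf6 and Fgf7, the FGF homologous factor Fgf11, the carrier Fgfbp1 and the receptors Fgfr1, Fgfr2, Fgfr3 and Fgfr4. They were found by gene symbol, and all 10 were among the 16382 named genes of the 8 libraries. The study asked which changes occur in muscle and at the neuromuscular junction (NMJ), the synapse between motor axon and muscle fiber, when Megf10 is lost. RNA was measured in the whole soleus, a postural calf muscle, of 4 Megf10 KO (Megf10 -/-) and 4 wild type (WT) female mice, 7 months of age, with 1 library per mouse. The KO is constitutive and lacks the fourth exon in every cell, so it does not separate satellite cells, glia and fibers. For some experiments KO mice were raised at another site, and whether these WT mice were littermates is not given in the sources used here.

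FGFs bind receptor tyrosine kinases together with heparan sulfate, a sugar chain on cell surfaces and in the matrix, and the receptors then activate the RAS and MAP kinase cascade. Sprouty proteins, DUSP phosphatases and ETS transcription factors of the Etv group are known as feedback or target genes of this cascade. In skeletal muscle, FGFs are known for their effects on satellite cells, the muscle stem cells, and in mice several of them act at the NMJ.

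Values are gene counts normalized by the authors, with totals of 32.3 to 33.1 M in KO libraries and 33.6 to 35.7 M in WT libraries. The depth recovered from the steps between low values was 37.8 M reads in KO replicate 1, 26.0 to 26.4 M in the other KO libraries and 36.7 to 41.5 M in WT libraries. Megf10 was low in each KO library (1.12 to 11.1 normalized counts) and present in each WT library (57.1 to 70.04), as the labels say. The 8 markers of muscle fibers were present in every library. Their sum was 2.69e+06 to 2.89e+06 normalized counts in KO libraries and 2.97e+06 to 3.25e+06 in WT libraries, with no overlap. Of the 8, 3 were called lower in KO and none higher. The summed level of 6 markers of fast type IIb fibers was 60898 and 96892 normalized counts in KO replicates 2 and 3, against 16122 and 24637 in the other KO libraries and 15620 to 28374 in WT libraries, so values without both of these KO libraries are given below. Log2 fold changes are KO over WT on the log2(normalized count + 1) scale, which understates the change of low genes. They were tested with limma over all 16382 genes, with p-values adjusted by the Benjamini-Hochberg method and a threshold of 0.05. Where 4 values are given for a genotype, they stand in the order of the replicate numbers, which name mice and have no other meaning.

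Of the 10 FGF genes, 3 passed: the receptor Fgfr3 rose in Megf10 KO soleus, while the receptor Fgfr4 and the ligand Fgf7 fell. Over all genes 8.95% were called, 5.16% higher and 3.79% lower in KO. An unadjusted p under 0.05 was common over all genes: Fgfbp1, at 0.0460 in limma, ranked 4047 of 16382 by p. The KO and WT ranges did not overlap for the same 3 genes, and over all genes the ranges did not overlap for 17.2%. The median log2 fold change of the 10 genes was 0.10, against -0.0072 over all genes, and 6 of the 10 were above 0.

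**Figure D1:**
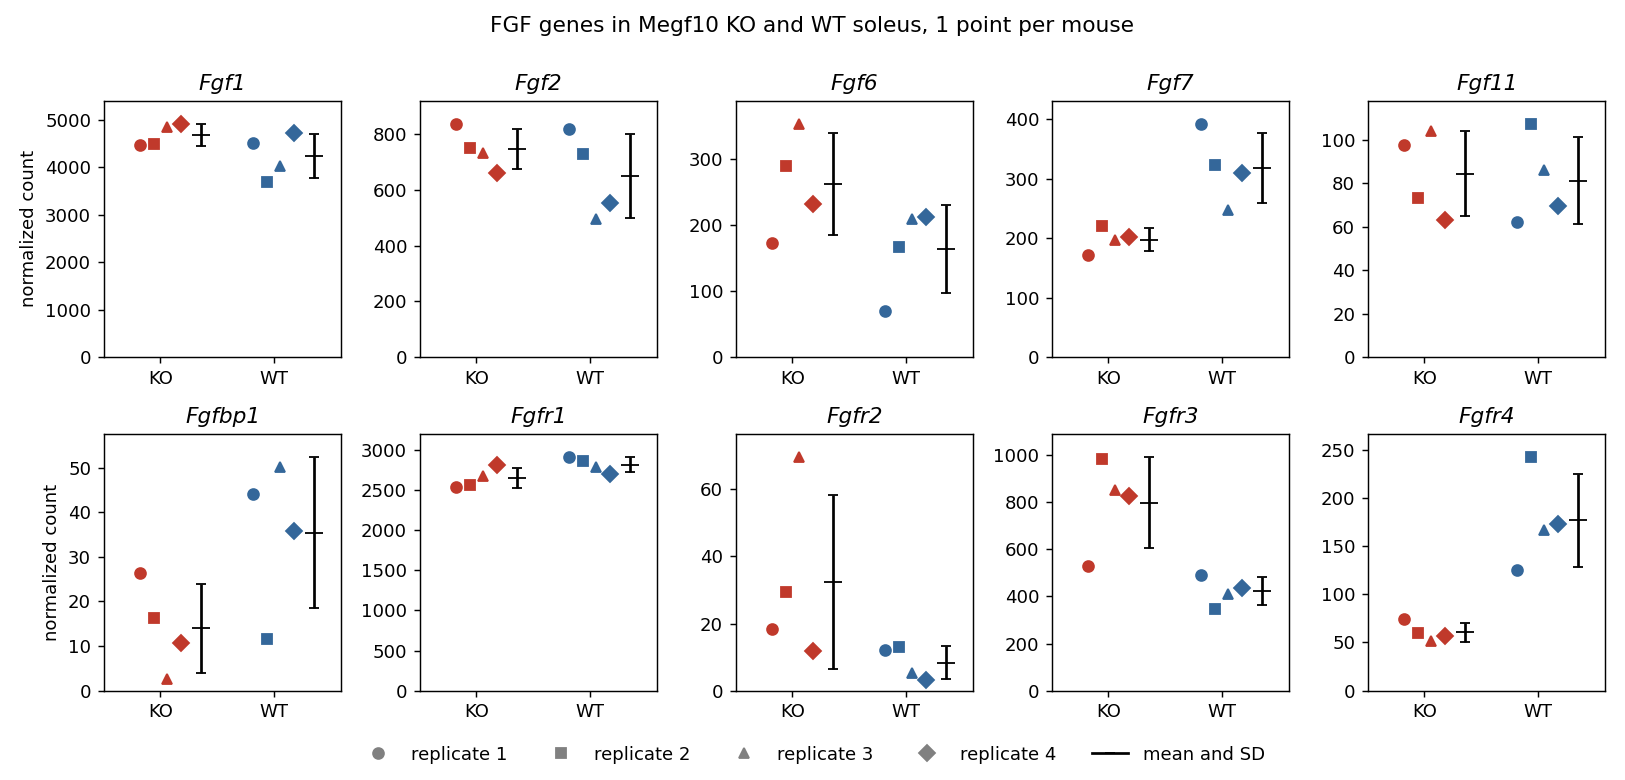
Normalized counts of the 10 FGF genes in each soleus library, with KO to the left of WT, 1 symbol per replicate number and the mean and SD of 4 mice beside them. Every KO point lies below every WT point for Fgf7 and Fgfr4 and above every WT point for Fgfr3, and the genotypes overlap for the other 7 genes.

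The promoters of the 3 genes that passed are shown because these are the members called between the genotypes. Each stretch is the 250 bases before the start of the gene, read 5′ to 3′ on the gene's strand, from RefSeq on build GRCm38.p6, which is not the build of the authors' counts (GRCm39). Capitals mark E-boxes (CANNTG, the sequence bound by MyoD and related factors) and GC boxes (GGGCGG or CCGCCC, bound by SP1), searched on both strands. The places are chr2:126034408-126034657 (+) for Fgf7, chr5:33721474-33721723 (+) for the first of the listed starts of Fgfr3 and chr13:55152568-55152817 (+) for Fgfr4.
Fgf7: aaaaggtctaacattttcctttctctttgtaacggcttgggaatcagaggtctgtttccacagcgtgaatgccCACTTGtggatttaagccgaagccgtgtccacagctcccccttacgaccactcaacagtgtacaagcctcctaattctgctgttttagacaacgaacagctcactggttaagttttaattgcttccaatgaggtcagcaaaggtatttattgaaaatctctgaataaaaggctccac
Fgfr3: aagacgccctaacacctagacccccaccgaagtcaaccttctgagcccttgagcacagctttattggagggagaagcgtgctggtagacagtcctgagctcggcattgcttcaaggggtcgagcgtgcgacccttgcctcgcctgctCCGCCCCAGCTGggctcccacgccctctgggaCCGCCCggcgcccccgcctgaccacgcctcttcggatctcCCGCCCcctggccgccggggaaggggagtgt
Fgfr4: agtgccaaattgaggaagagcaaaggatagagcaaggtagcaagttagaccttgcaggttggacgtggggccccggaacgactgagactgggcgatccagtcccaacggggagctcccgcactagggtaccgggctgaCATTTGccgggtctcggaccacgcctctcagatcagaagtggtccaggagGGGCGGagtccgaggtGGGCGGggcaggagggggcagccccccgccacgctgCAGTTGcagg

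The Fgf7 promoter held 1 E-box (CACTTG) and no GC box, at a GC content of 43.6%. At the start shown, the Fgfr3 promoter held 1 E-box, of the form CAGCTG, and 3 GC boxes, of which the first abuts the E-box, at a GC content of 66.8%. The 250 bases before the other listed start of Fgfr3 (chr5:33722056-33722305) held no E-box and 2 GC boxes, at a GC content of 72.8%. The Fgfr4 promoter held 2 E-boxes (CATTTG and CAGTTG) and 2 GC boxes, at a GC content of 64.0%. Of 32851 promoters of this length, 66.2% held CANNTG, 13.0% held its form CAGCTG and 32.7% held a GC box. These matches describe letters and do not show binding.

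Fgf7, also called keratinocyte growth factor, is a ligand made by mesenchymal cells that binds a splice form of Fgfr2, and in mice it is known to promote the clustering of synaptic vesicles at the NMJ. It had 171, 219.8, 197 and 203 normalized counts in the 4 KO libraries, against 392.4, 323, 248 and 309.6 in the 4 WT libraries. The genotypes did not overlap, and the gap between KO replicate 2 and WT replicate 3 was the narrowest point. The means were 198 ± 20.0 in KO and 318 ± 59.2 in WT (SD, n = 4 each), a log2 fold change of -0.67 (adjusted p = 0.0230, SE 0.153). The call was lost without KO replicate 1 (adjusted p = 0.0549), KO replicate 3 (0.0622), WT replicate 1 (0.0530), WT replicate 2 (0.0519) or WT replicate 4 (0.0525), while the log2 fold change stayed between -0.78 and -0.56. It was -0.75 without KO replicates 2 and 3 together (adjusted p = 0.108) and -0.96 with depth as a covariate (adjusted p = 0.135). Megf10, the deleted gene, did not pass with that covariate either (-4.75, adjusted p = 0.0575). A call lost in that fit therefore does not show that a gene is unchanged.

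As a sum, markers of fibro-adipogenic cells, which are mesenchymal cells of muscle, were higher in KO, while Fgf7 was lower. Their sum over 8 genes was 51543 to 73118 normalized counts in KO libraries and 36177 to 43704 in WT libraries, with 4 of 8 called higher and none lower. Gsn alone averaged 31589 in KO and 20746 in WT, against 60153 and 40726 for the sum. The genotypes overlapped for Pdgfra, Dcn and Ly6a and did not for Dpt, Lum, Col1a1, Col3a1 and Gsn. Markers of endothelial cells summed to 9904 to 12886 in KO and 13229 to 15161 in WT, with 1 of 8 called lower and none higher. Markers of macrophages summed to 3940 to 4912 in KO and 2312 to 2981 in WT, with 5 of 7 called higher. For mural cells of vessels the sum was 13352 to 17371 in KO and 17811 to 19837 in WT, with 2 of 7 called lower and none higher. For tendon cells it was 11092 to 18417 in KO and 8095 to 12471 in WT, with 1 of 6 called higher and none lower. No marker of these lists was at 0 in any library. The part of these cells in the value of Fgf7 was not tested, and in whole muscle fewer cells of a type and less RNA per cell cannot be told apart.

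Fgf1, an FGF that can bind all FGF receptors, had 4470 to 4911 normalized counts in KO libraries and 3702 to 4724 in WT libraries. Its log2 fold change was 0.15 (adjusted p = 0.287, SE 0.0816), with an unadjusted 95% interval of -0.03 to 0.33. Fgf2, a mitogen for cultured satellite cells, had 662 to 837 in KO and 497 to 819 in WT (log2 fold change 0.22, adjusted p = 0.401, SE 0.153). The genotypes overlapped for both genes. In the GENCODE annotation 640 bases of Fgf2 exons (9.44%) lie opposite exons of Nudt6, so reads there cannot be told apart if strand was not used, and the log2 fold change of Nudt6 was -0.14 (adjusted p = 0.413).

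Fgf6, a ligand made mostly by skeletal muscle, had 172, 289.8, 353 and 231 normalized counts in the 4 KO libraries, against 69.4, 166, 209 and 212 in the 4 WT libraries. KO replicates 2, 3 and 4 were above every WT library, and KO replicate 1 was within the WT range. The difference of 0.74 on the log2 scale did not pass (adjusted p = 0.209, SE 0.347). The value was 0.41 without KO replicates 2 and 3 together and 0.38 without WT replicate 1, the lowest library. Fgf11, which stays inside the cell and belongs to a group known to bind voltage-gated sodium channels, had 62.9 to 104 in KO and 62.0 to 107 in WT. Its log2 fold change of 0.057 (adjusted p = 0.909, SE 0.238) turned negative without KO replicate 1 or 3, WT replicate 1 or 4, or KO replicates 2 and 3 together.

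Fgfbp1 is a secreted carrier that releases FGFs from heparan sulfate in the matrix, and in mouse muscle it is known to help maintain the NMJ. It had 26.3, 16.2, 2.71 and 10.6 normalized counts in the 4 KO libraries, against 44.1, 11.6, 50.1 and 35.8 in the 4 WT libraries. WT replicate 2 lay within the KO range, while the other WT libraries were above every KO library. The means were 13.9 ± 9.91 in KO and 35.4 ± 16.9 in WT (SD, n = 4 each). The log2 fold change of -1.43 did not pass (adjusted p = 0.186, SE 0.634), and its unadjusted 95% interval was -2.83 to -0.03. The study itself, with DESeq2 in place of limma, listed both Fgf7 and Fgfbp1 as reduced in KO. By qPCR in soleus the study also reported Fgfbp1 as altered, with the same direction. In limma Fgfbp1 passed in none of the 8 fits without 1 library (adjusted p = 0.0933 to 0.379), where the log2 fold change was -1.88 to -0.87.

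Fgfr4 is a receptor tyrosine kinase known in satellite cells and myoblasts. It had 74.3, 59.3, 51.3 and 56.7 normalized counts in the 4 KO libraries, against 125, 242, 167 and 173 in the 4 WT libraries. Every KO library was below every WT library, and WT replicate 2 was the highest of all. The means were 60.4 ± 9.82 in KO and 177 ± 48.4 in WT (SD, n = 4 each), a log2 fold change of -1.51 (adjusted p = 0.00338, SE 0.219). It passed in each of the 8 fits that leave out 1 library, with log2 fold changes of -1.66 to -1.34. Without KO replicates 2 and 3 together the log2 fold change was -1.39 (adjusted p = 0.0582) and with depth as a covariate it was -1.06 (adjusted p = 0.209), so the call was lost in both. Megf10 also lost its call with depth as a covariate (adjusted p = 0.0575).

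Pax7, a defining marker of satellite cells, was also called lower (log2 fold change -1.60, adjusted p = 0.0203), with 23.8 to 88.8 normalized counts in KO libraries and 124 to 217 in WT libraries. The ratio of Fgfr4 to Pax7 normalized counts was 0.639 to 2.16 in KO libraries and 0.798 to 1.73 in WT libraries, so it overlapped. Ratios to other satellite cell markers were not computed, and not all of those fell, so the overlap holds for Pax7 alone. The call of Pax7 was lost without WT replicate 3 or 4 (adjusted p up to 0.0568), without KO replicates 2 and 3 together (-1.06, adjusted p = 0.107) and with depth as a covariate (-1.42, adjusted p = 0.353). Of 8 satellite cell markers, Pax7 was the sole gene called, 3 were at an unadjusted p under 0.05, and the median log2 fold change was -0.31. Myf5 (46.5 to 71.2 in KO, 73.4 to 96.9 in WT) and Heyl (184 to 275 in KO, 279.8 to 528 in WT) did not overlap either, with adjusted p = 0.101 and 0.0794. The genotypes overlapped for Cdh15 (703 to 1026 in KO, 849 to 959 in WT) and Vcam1 (109 to 153 in KO, 103 to 142 in WT). They also overlapped for Chodl (278 to 448 in KO, 311 to 427 in WT), Calcr and Sdc4. Of the 8 markers, 3 had a log2 fold change above 0. The summed level of the 8 was 3644 to 4236 in KO and 3722 to 4825 in WT, and Sdc4 alone averaged 2355 in KO and 2112 in WT.

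Fgfr3, a receptor tyrosine kinase best known for limiting growth in cartilage, had 530.0, 985, 852 and 827 normalized counts in the 4 KO libraries. In the 4 WT libraries it had 490.3, 347, 411 and 436. Every KO library was above every WT library, but KO replicate 1 lay nearer to WT replicate 1 than to any other KO library. The means were 798 ± 192 in KO and 421 ± 59.4 in WT (SD, n = 4 each), a log2 fold change of 0.90 (adjusted p = 0.0136, SE 0.181). The adjusted p was 0.0503 without KO replicate 3 and 0.0514 with a prior variance that does not follow expression, and it was 0.00280 to 0.0392 without any other single library.

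Without KO replicates 2 and 3 together, the log2 fold change of Fgfr3 was 0.66 (adjusted p = 0.145). With depth as a covariate the value was 0.25 (adjusted p = 0.574), and its SE was then 0.1601, below that of the fit with genotype alone. KO replicate 1 is the sole KO library with a depth in the range of WT libraries. Over all genes, standard errors were larger with this covariate (median ratio 1.68), and depth and genotype cannot be fully told apart in these libraries. Markers of fat cells also differed: the sum of 6 was 2281 in KO replicate 1, 3638 to 5096 in the other KO libraries and 846 to 1688 in WT libraries, with 5 of 6 called higher. Within KO this sum was highest in replicate 4 (5096), while Fgfr3 was highest in replicate 2 (985). The sum of fibro-adipogenic markers was likewise lower in KO replicate 1 (51543) than in the other KO libraries (54635 to 73118). The part of these cells in the value of Fgfr3 was not tested. In the GENCODE annotation 998 bases of Fgfr3 exons (13.9%) lie opposite exons of G630022F23Rik, and whether the counting used strand is not given in the sources used here.

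Relative to its mean, Fgfr1 had the narrowest spread of the receptors, with a coefficient of variation of 4.68% in KO and 3.28% in WT. It had 2537 to 2810.3 normalized counts in KO and 2696 to 2905 in WT, and its log2 fold change was -0.090 (adjusted p = 0.386, SE 0.0601). Its unadjusted 95% interval, -0.22 to 0.04, leaves room for a small fall. Fgfr2, whose splice forms divide epithelial and mesenchymal tissues, was low in every library, with 18.4, 29.5, 69.5 and 11.9 in the 4 KO libraries and 12.0, 13.1, 5.16 and 3.25 in the 4 WT libraries. KO replicates 1, 2 and 3 were above every WT library, and KO replicate 3 was the highest. The log2 fold change of 1.70 did not pass (adjusted p = 0.0955, SE 0.581) and was 1.24 to 2.06 without 1 library. It was 0.92 without KO replicates 2 and 3 together (adjusted p = 0.479). In the GENCODE annotation 314 bases of Fgfr2 exons (3.04%) also lie in exons of Ctbp2 on the same strand, and reads there could count for either gene. The splice forms that decide which FGFs bind Fgfr2 are summed in these gene counts.

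**Figure D2:**
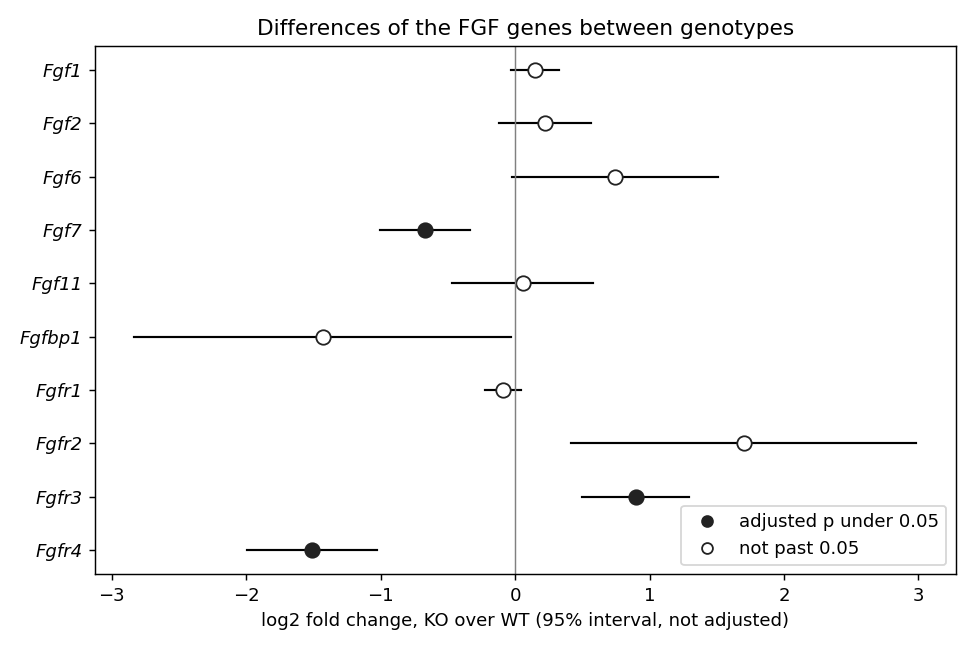
Log2 fold change of KO over WT for each FGF gene (circles) with its unadjusted 95% interval (lines), filled where the adjusted p from limma is under 0.05. Fgf7 (-0.67), Fgfr3 (0.90) and Fgfr4 (-1.51) are filled, and the intervals of Fgfbp1 and Fgfr2 leave out 0 but did not pass after adjustment.

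The shares of Fgfr3 and Fgfr4 in the receptor RNA did not overlap between the genotypes. As a percent of the summed normalized counts of the 4 receptors, with no correction for length, Fgfr3 took 16.8 to 27.1% in KO libraries and 10.003 to 13.9% in WT libraries. Fgfr4 took 1.41 to 2.35% in KO libraries and 3.54 to 6.98% in WT libraries. Fgfr1 took 70.5 to 80.3% in KO and 81.5 to 82.7% in WT. None of these 3 shares overlapped between the genotypes, and the share of Fgfr2 did (0.320 to 1.91% in KO, 0.0984 to 0.378% in WT). The ratio of Fgfr4 to Fgfr3 counts was 0.140, 0.0603, 0.0603 and 0.0686 in the 4 KO libraries and 0.255, 0.697, 0.405 and 0.397 in the 4 WT libraries. The summed receptor count itself was 3538 ± 253 in KO and 3422 ± 99.3 in WT (SD, n = 4 each). Per kb of exon, Fgfr3 took 27.6 ± 5.01% in KO and 14.9 ± 2.26% in WT, and Fgfr4 took 4.33 ± 1.09% in KO and 12.6 ± 3.23% in WT (SD, n = 4 each). On that scale Fgfr1 overlapped (62.3 to 72.6% in KO, 71.1 to 73.7% in WT). These shares were not tested, since they combine genes whose differences are given above. They also have a fixed sum, so the share of Fgfr1 can be lower without a change in Fgfr1 itself.

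**Figure D3:**
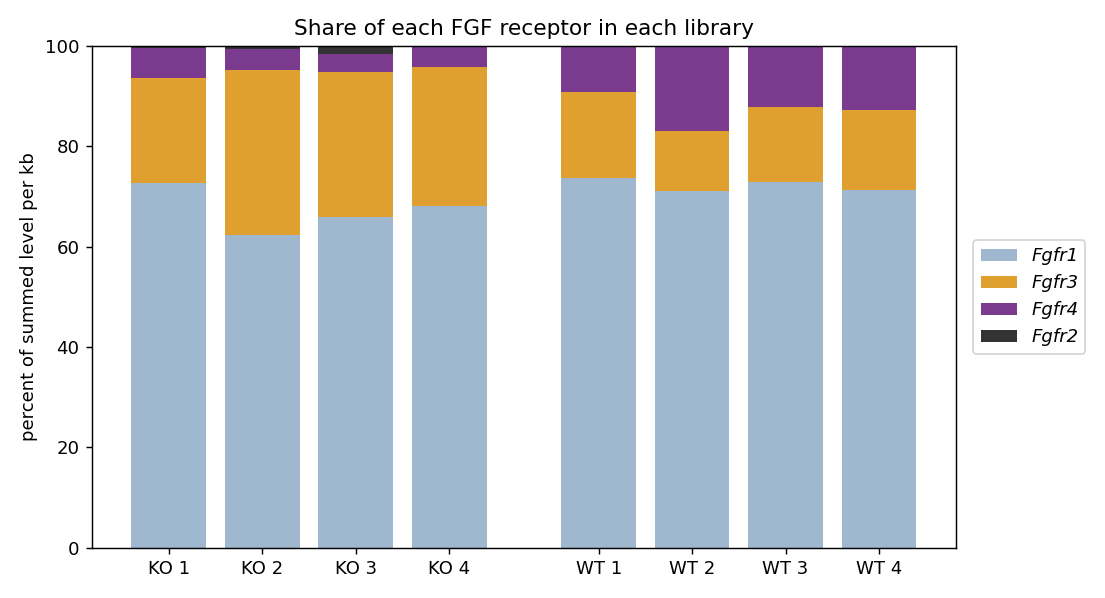
Share of each receptor in the summed level per kb of exon of Fgfr1 to Fgfr4, in percent, for each KO and WT library. The band of Fgfr3 is wider in every KO library (20.9 to 33.0%) than in any WT library (11.9 to 17.2%), and the band of Fgfr4 is narrower (3.53 to 5.93% in KO, 8.85 to 16.7% in WT).

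Levels of different genes were compared per kb of the union of their exons. In KO the order of mean levels was Fgf1 (858 normalized counts per kb), Fgfr1 (268), Fgfr3 (112), Fgf2 (109.8), Fgf7 (60.9), Fgf6 (56.2), Fgf11 (27.7), Fgfr4 (17.1), Fgfbp1 (6.16) and Fgfr2 (3.13). In WT it was Fgf1 (776), Fgfr1 (285), Fgf7 (97.97), Fgf2 (95.7), Fgfr3 (58.8), Fgfr4 (49.9), Fgf6 (35.3), Fgf11 (26.7), Fgfbp1 (15.6) and Fgfr2 (0.812). In KO the ranges overlapped between the neighbours Fgfr3 and Fgf2, Fgf7 and Fgf6, Fgf11 and Fgfr4, and Fgfbp1 and Fgfr2. In WT they overlapped between Fgf7 and Fgf2, Fgfr3 and Fgfr4, Fgfr4 and Fgf6, Fgf6 and Fgf11, and Fgf11 and Fgfbp1. Thus Fgfr3 and Fgfr4 were neighbours with overlapping levels per kb in WT and were separated by 4 other genes in KO.

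The genes whose pattern over the 8 libraries was most like each called member were found by the root mean square (RMS) difference of centered log2 values, among 12009 genes. Values were centered over all 8 libraries, so the difference between the genotypes stayed in. The match thus favors genes with a similar difference, and their calls are no separate result. For Fgfr4 the most similar genes were Plekhh3 (RMS difference 0.260), Myod1 (0.368), the factor that commits muscle precursors, and Rabep2 (0.371), against an RMS of 0.802 for Fgfr4 itself. For Fgfr3 they were 1700017B05Rik (0.177), Ror1 (0.184), a receptor for Wnt ligands, and Adig (0.191), known in fat cells, against an RMS of 0.522. For Fgf7 they were Ano5 (0.140), Zfp280d (0.141) and Gfra1 (0.149), the co-receptor for GDNF, against an RMS of 0.384. Of these genes, Ror1 and Gfra1 did not pass the test themselves (adjusted p = 0.183 and 0.0519), and Ano5 and Zfp280d passed in 2 of the 8 fits that leave out 1 library (adjusted p up to 0.116 and 0.0928). The call of 1700017B05Rik was lost without KO replicate 3 (adjusted p = 0.0604). Without KO replicates 2 and 3 together only Plekhh3 of these genes passed (adjusted p = 0.0455). Myod1 (adjusted p = 0.118), Rabep2 (0.0855) and Adig (0.0780) were among those that lost their calls there. With depth as a covariate none of these genes passed.

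Of 17 other FGF ligands listed, 8 were in the libraries, and limma called none of them, with 1 at an unadjusted p under 0.05. That gene was Fgf16, chosen after its values were seen, with 22.1 to 36.3 normalized counts in KO and 13.7 to 19.5 in WT (log2 fold change 0.89, adjusted p = 0.0762, SE 0.281). The median log2 fold change of the 8 was 0.30. Of 19 co-receptors and carriers tested, 1 rose and none fell, a share of 5.26% called against 8.95% over all genes. In this list 5 were at an unadjusted p under 0.05, and the median was 0.070. Such p-values were common over all genes, as the rank of Fgfbp1 given above shows. The called gene was Fgfrl1, an FGF receptor that lacks the kinase domain, with 3493 to 4635 normalized counts in KO and 1816 to 2806 in WT. Its log2 fold change was 0.84 (adjusted p = 0.00468, SE 0.132), and it passed without any single library but not without KO replicates 2 and 3 together (0.80, adjusted p = 0.0678) or once depth was a covariate (0.99, adjusted p = 0.101).

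Of 18 enzymes that build or trim heparan sulfate, 1 rose, 2 fell and 15 did not pass, a share of 16.7% called against 8.95% over all genes. An unadjusted p under 0.05 was found for 6, and the median was 0.058. Sulf2, which removes sulfate groups from heparan sulfate outside the cell, had 1655, 1305, 1430 and 1612 normalized counts in the 4 KO libraries. In the 4 WT libraries it had 684, 952, 814 and 946, so the genotypes did not overlap. Its log2 fold change was 0.83 (adjusted p = 0.00344, SE 0.1205). It was 0.96 without KO replicates 2 and 3 together (adjusted p = 0.0297) and 1.03 with depth as a covariate (adjusted p = 0.0634). On the log2 scale Ndst2, which adds sulfate to the chain, fell by 0.59 (adjusted p = 0.0186, SE 0.128) and passed in 6 of the 8 fits that leave out 1 library, not without WT replicate 3 or 4 (adjusted p up to 0.0551). Extl1, a glycosyltransferase of the exostosin family, fell by 0.34 (adjusted p = 0.0436, SE 0.0902) and passed without KO replicate 1 or WT replicate 4 but not without any other library (adjusted p up to 0.121).

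Of 23 genes reported that carry the signal inside the cell, limma called none, with 4 at an unadjusted p under 0.05, and the median was -0.0070. Of 17 feedback and target genes, 1 rose and none fell (5.88% called), 7 were at an unadjusted p under 0.05, and the median was 0.30. With library size alone as the scaling, 3 of them were called. In the fit reported, 11 of the 17 had a log2 fold change above 0. Spry1 (-0.15), Spry2 (-0.41), Spry4 (-0.090) and Dusp6 (-0.16) were below 0. Dusp4 (0.18), Dusp5 (0.30), Etv1 (0.51) and Etv4 (0.49) were above 0. None of these named genes passed. Etv5, an ETS factor, rose by 0.41 (adjusted p = 0.0412, SE 0.108) but passed only without KO replicate 4 or WT replicate 1 among the fits that leave out 1 library (adjusted p up to 0.112). None of Ndst2, Extl1 and Etv5 passed without KO replicates 2 and 3 together or with depth as a covariate.

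**Figure D4:**
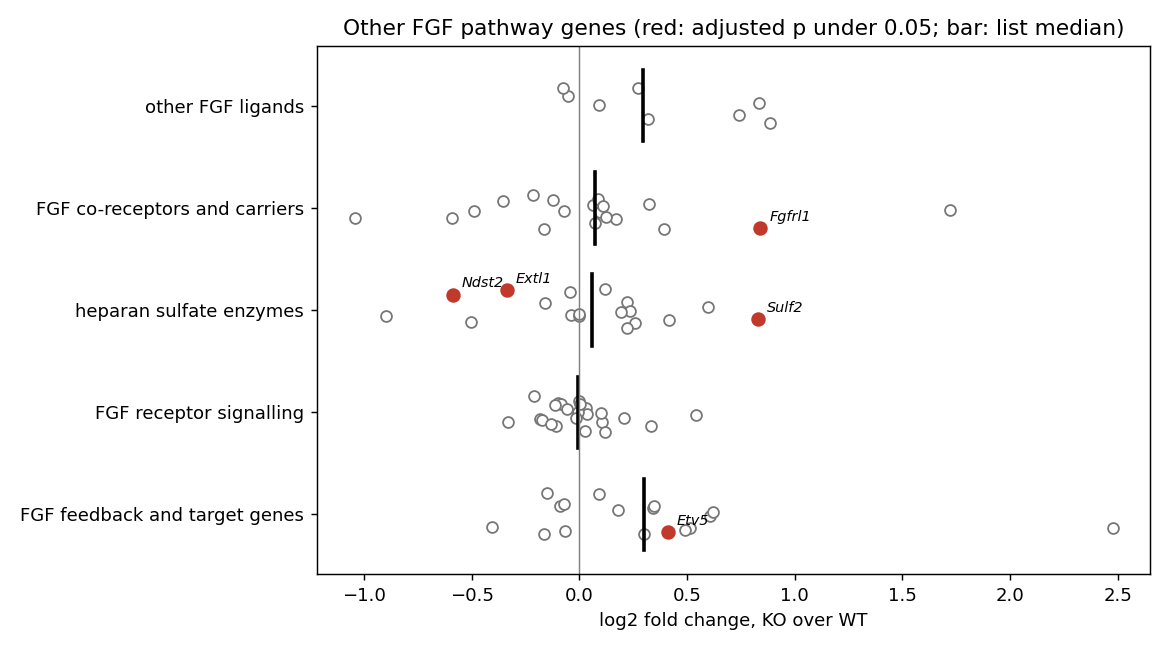
Log2 fold change of KO over WT for other genes of the FGF pathway, 1 circle per gene, with the median of each list as a bar and genes with an adjusted p under 0.05 in red. Fgfrl1 (0.84), Sulf2 (0.83) and Etv5 (0.41) are called higher, Ndst2 (-0.59) and Extl1 (-0.34) lower.

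**Figure D5:**
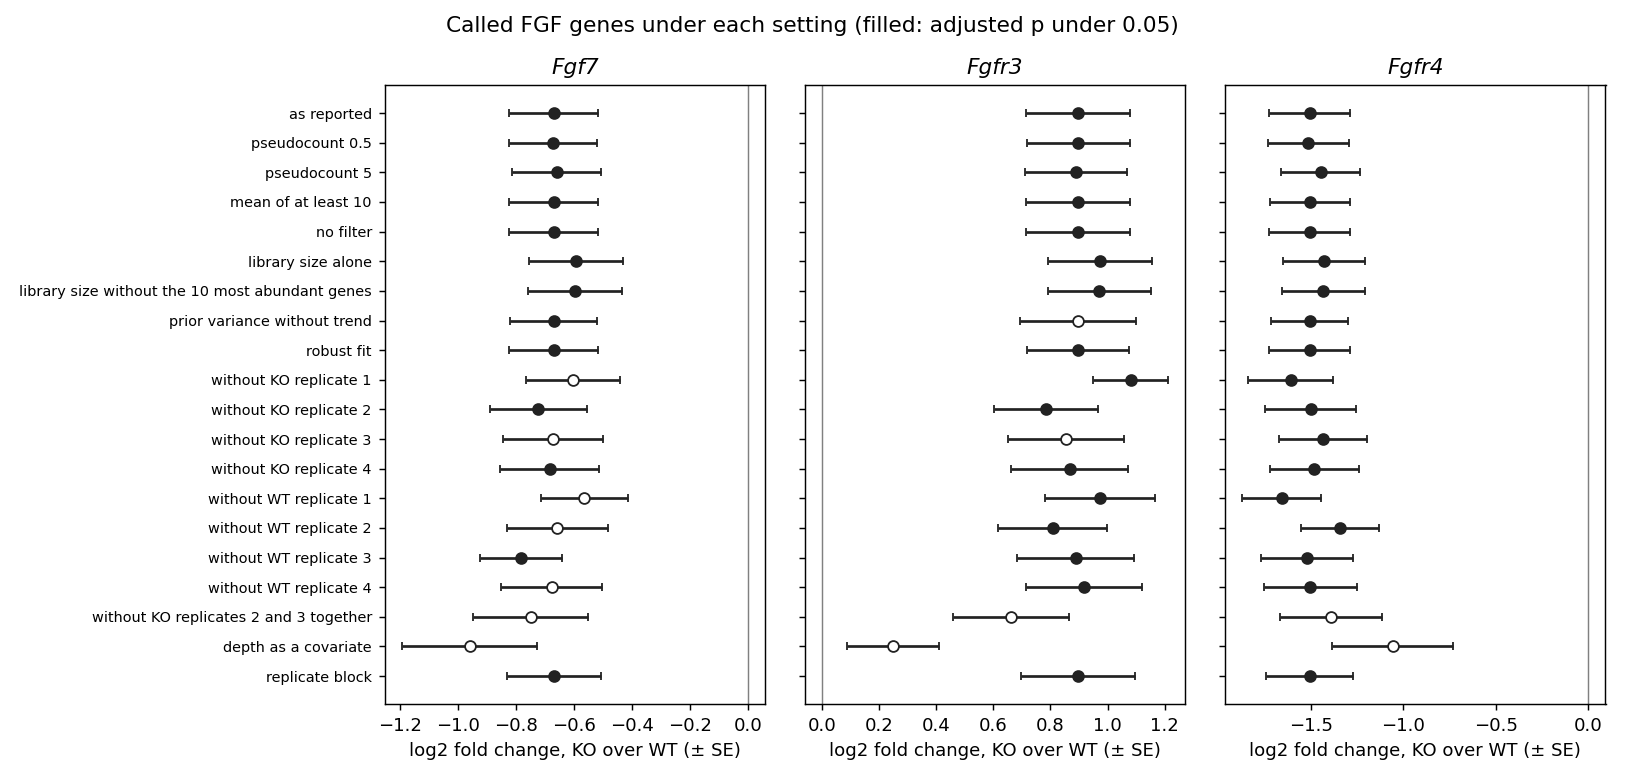
Log2 fold change with its SE for Fgf7, Fgfr3 and Fgfr4 under each alternative setting, filled where the adjusted p from limma is under 0.05. The sign holds in every row, the largest move is that of Fgfr3 with depth as a covariate (0.25), and no gene is filled with that covariate or without KO replicates 2 and 3 together.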

How the data were processed

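RNA-seq of whole soleus was analysed from 4 KO and 4 WT libraries. Reads had been trimmed with Trimmomatic and quantified per transcript with Salmon (build GRCm39). The authors imported these into genes through tximport, removed counts up to 5 and applied the scaling of DESeq2. The deposited signal values are these normalized counts, and a deposited table of the authors' own fold changes and p-values was not used. Here limma 3.58.1 in R 4.3.3 tested genotype alone on the log2 of the normalized count plus 1, with variance shrunk along a trend with expression, for genes with a summed value above 5, which left out none. A line without a gene name (0.0112 to 0.0150% of each library) was left out. Only 14.0 to 36.5% of low values were whole reads at a tolerance of 0.01, so no count test was run. Figures used Python 3.11.15 and matplotlib 3.10.9. Exon lengths came from GENCODE M21 (GRCm38).

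The members, gene lists, tests and alternatives were chosen with earlier results of these data known. Named genes were the members, up to 4 called genes of smallest adjusted p per pathway list, the 3 genes of mean 50 or more with the most similar pattern for each called member, and Megf10. Pax7 was given as the defining satellite cell marker, and the rest of that list was named after its values were seen. So were the fibro-adipogenic markers, the Sprouty and DUSP genes, Etv1 and Etv4. Nudt6, Ctbp2 and G630022F23Rik were named for their overlap with members. Replicate numbers do not pair the libraries: deviations of same-numbered libraries from their group means had correlations of -0.067 to -0.029. Alternatives were other pseudocounts, filters, scalings and variance priors, a threshold of 0.01, each library left out in turn, KO replicates 2 and 3 left out together, depth as a covariate and the replicate number as a block. A gene of the signaling list is not reported here, and the counts and median of that list leave it out.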

Additional observations from a re-analysis of the deposited data

How the results depend on the processing

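The 3 called genes kept their sign under every alternative run, and Fgfr4 passed in all of them but 2. Of all genes, 1466 were called, against 819 with a prior variance without trend, 440 at a threshold of 0.01, 58 with depth as a covariate, 164 without KO replicates 2 and 3 together and 662 to 1231 without 1 library. The lowest counts without 1 library were 662 (KO replicate 3 left out), 907 (WT replicate 3 left out) and 959 (WT replicate 4 left out). The split was 845 higher and 621 lower, and 1279 higher and 321 lower with library size alone, where the median log2 fold change of all genes was 0.070 in place of -0.0072. Of the FGF genes, 3 were called, against 1 at a threshold of 0.01, 1 to 3 without 1 library (1 without KO replicate 3), 0 with depth as a covariate and 0 without KO replicates 2 and 3 together. The median ratio of standard errors to those of the fit reported was 1.68 and 1.26 in these last fits. Megf10 did not pass with depth as a covariate either (adjusted p = 0.0575), so a call lost there does not show that a gene is unchanged. The log2 fold change of Fgf11 was -0.0205 without KO replicates 2 and 3 together and was -0.0599 to 0.20 without 1 library.

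With library size alone, 2 co-receptors and carriers, 1 signaling gene and 3 feedback and target genes were called. With a pseudocount of 5, and with a mean of at least 10, 1 signaling gene was called, against 0 in the fit reported. Without KO replicates 2 and 3 together, 0 co-receptors and carriers, 1 heparan sulfate enzyme, 0 signaling genes and 0 feedback and target genes were called. Without 1 library these counts were 1 to 2, 1 to 4, 0 to 1 and 0 to 2, in that order of lists. With the replicate number as a block, 1278 of all genes and 3 of the FGF genes were called, and none of 4 KO libraries correlated best with the WT library of its own number. The causes of these moves were not tested. Fgfbp1 (means 13.9 in KO and 35.4 in WT) and Fgfr2 (32.3 in KO and 8.38 in WT) had the lowest normalized counts of the FGF genes and the widest relative spread, with coefficients of variation of 47.8 to 79.97%, and the part of depth in it was not tested.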
